A study of Mus musculus with 10 samples.

Results

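Glycolysis was followed through 10 of its enzymes, *Hk1*, *Hk2*, *Gpi1*, *Pfkl*, *Pfkp*, *Aldoa*, *Gapdh*, *Eno1*, *Pkm* and *Ldha*, chosen by symbol as members of the pathway. All 10 were found among the 36066 genes of the expression table. RNA-seq had been done on 5 groups of mouse cells with 2 libraries each. All cells were of the C57BL6 strain, and the methods place both stem cell lines on an Actin-GFP background. ESCs were a female embryonic stem cell line from fertilized embryos, and pESCs were a parthenogenetic line from activated oocytes, which carry maternal chromosomes alone; the labels name a single line for each, so a property of the line and of the origin cannot be told apart. Both lines were derived on mouse feeder fibroblasts and passaged on them in serum with LIF. Before induction they were kept for several passages in t2iL, a medium with the inhibitor PD0325901. The methods do not say from which medium the sequenced stem cells came. ESC-PGCLCs and pESC-PGCLCs were primordial germ cell-like cells made from these lines by way of epiblast-like cells (2 days). The next 4 days were with BMP4 (500 ng/mL), SCF (100 ng/mL), EGF (50 ng/mL) and LIF (1000 IU). The PGCLCs were sorted as cells positive for SSEA1 and CD61. PGCs were primordial germ cells of the embryo, for which the labels give no embryonic day. Values are TPM, in which a gene's reads are corrected for its length and every library is brought to a common total, so levels can be set side by side between genes. The methods call the 2 libraries of a group biological replicates, which for the study may be mice or repeats of a cell experiment, and do not say which holds for each group, so the p-values measure the spread between these libraries.

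Glycolysis turns glucose into pyruvate in the cytosol and yields ATP without oxygen. Hexokinase traps glucose in the cell, phosphofructokinase commits it to the pathway, and pyruvate kinase makes the last ATP, while lactate dehydrogenase turns pyruvate into lactate and so restores the NAD that glyceraldehyde phosphate dehydrogenase needs. Mouse pluripotent stem cells are known for a high rate of glycolysis, and the move from pluripotency to the germ line is known for a shift toward oxidative metabolism.

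Read totals recovered from the TPM lay between 6779837 (ESC-PGCLC replicate 2) and 18572901 (ESC replicate 2), and ESC-PGCLC replicate 1 was the next shallowest at 7697693. A fixed list of 8 pluripotency markers summed to between 667 and 1082 TPM in the stem cells and to between 137 and 222 TPM in the germ cell groups, and 10 germ cell markers summed to between 408 and 932 TPM in the stem cells and to between 5660 and 8000 TPM in the germ cell groups. *Pou5f1*, a pluripotency factor that early germ cells also use, was at 0.374 and 0 TPM in the ESC-PGCLC libraries, against 2.98 and 2.88 TPM in pESC-PGCLCs and 3.14 and 1.63 TPM in PGCs. *Sox2* went the other way, at 97.3 and 110 TPM in ESC-PGCLCs, 23.9 and 29.7 TPM in pESC-PGCLCs and 83.4 and 75.1 TPM in PGCs. By the test used below, 6 of the 8 pluripotency markers were not called between the PGCLC groups, where 13.4% of all genes were called. Haemoglobin genes, markers of red blood cells, summed to at most 4.15 TPM in the stem cells, to 492 and 562 TPM in ESC-PGCLCs, to 2901 and 3437 TPM in pESC-PGCLCs and to 1989 and 2200 TPM in PGCs, with 7 of 8 above 1 TPM in both libraries of each germ cell group. Gonadal somatic cell markers, 7 genes, summed to 23.9 to 28.6 TPM in ESC-PGCLCs, 45.5 to 50.8 TPM in pESC-PGCLCs and 87.7 to 102 TPM in PGCs, against 2.35 to 5.66 TPM in stem cells. The 9 fibroblast markers, for feeder cells, summed to between 21.4 and 39.0 TPM in every library, most of it from *Fn1* (17.3 to 35.9 TPM), the fibronectin gene. Of the others, *Thy1* was at 0 in both libraries of ESC-PGCLCs and of PGCs, while *Col3a1*, a collagen gene, was at most 0.128 TPM in stem cells and at 2.42 to 7.45 TPM in germ cell groups, and rose in ESC-PGCLCs (log2 change 1.81) and pESC-PGCLCs (2.32) against their stem cells. *Dcn* and *Lum* also rose in pESC-PGCLCs (1.21 and 1.06). Haemoglobin, gonadal somatic and some fibroblast markers therefore moved in each comparison below of a germ cell group with stem cells. Haemoglobin and gonadal somatic markers also moved between ESC-PGCLCs and each of the other germ cell groups. Between PGCs and pESC-PGCLCs, 1 of 8 haemoglobin genes and 1 of 7 gonadal somatic markers were called, where 3.67% of all genes were. The part of these markers in the results below was not tested.

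The summed TPM of the 10 enzymes was highest in stem cells. They took 0.138% and 0.118% of all TPM in ESCs, 0.0804% and 0.0901% in pESCs, 0.0424% and 0.0315% in PGCs, 0.0295% and 0.0305% in pESC-PGCLCs and 0.0105% and 0.0116% in ESC-PGCLCs. *Ldha* was the highest of the 10 in 9 libraries and *Aldoa* in PGC replicate 1. *Hk1* was the lowest in 9 libraries and *Pfkl* in ESC-PGCLC replicate 2. These shares and ranks leave out pseudogene copies, on which most TPM of *Gapdh*-like sequence lay, as given below. The plot of TPM by library shows that the fall from stem cells to germ cells was carried by some enzymes and not by others. In cell populations of this kind, fewer cells that use a gene and less of its RNA in each cell cannot be told apart.

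**Figure D1:**
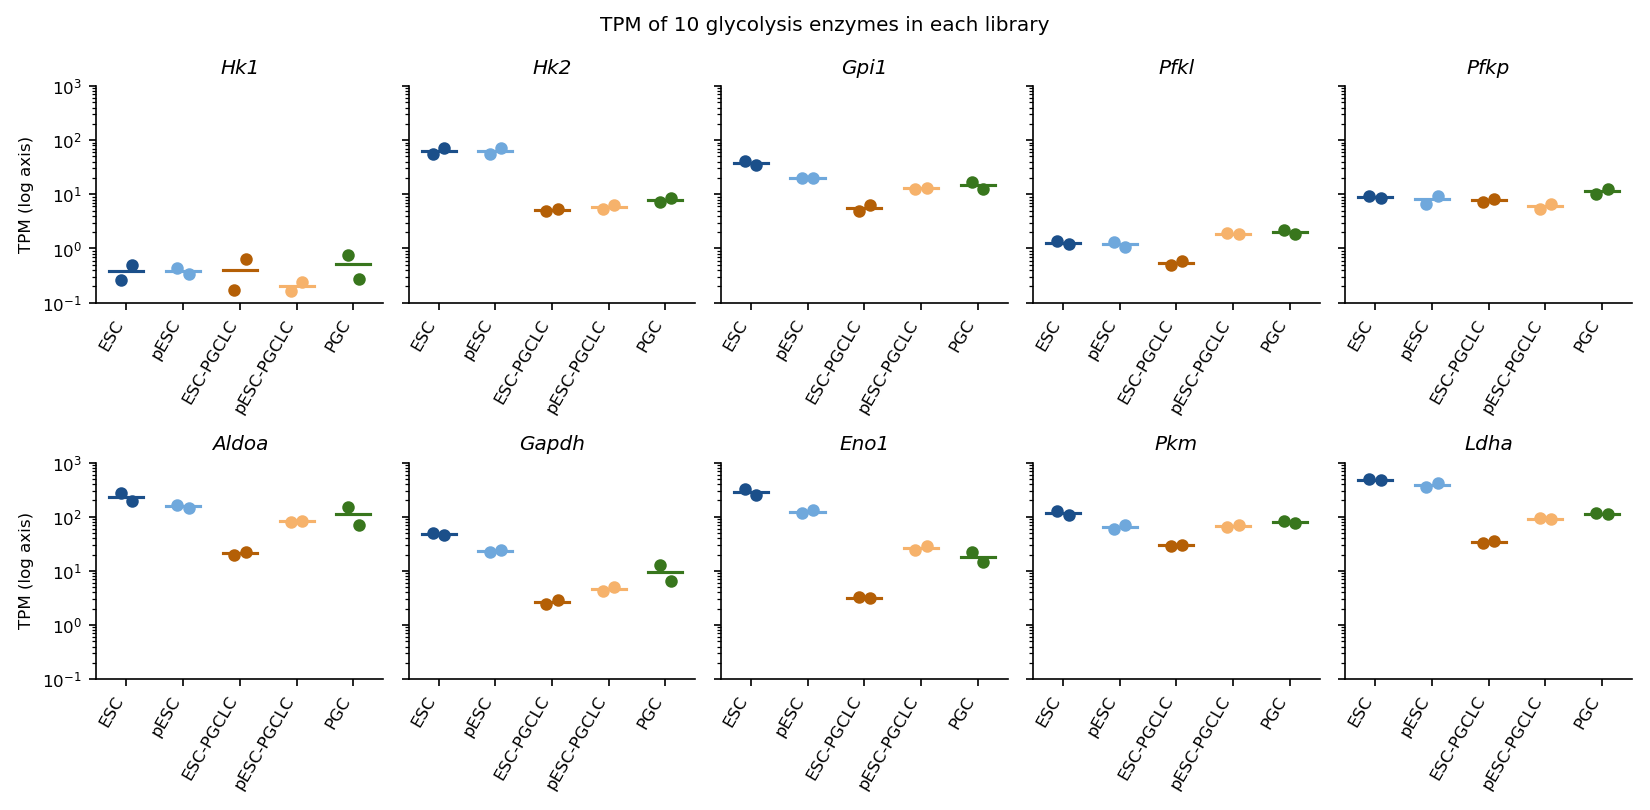
TPM of each of the 10 enzymes (vertical axis, logarithmic) in the 2 libraries of each group (points; horizontal lines are group means). *Hk2* lies between 56.2 and 72.1 TPM in every stem cell library and between 4.83 and 8.55 TPM in every germ cell library, *Eno1* spans from 3.11 to 320 TPM, and *Pfkp* stays between 5.39 and 12.7 TPM throughout.

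4 of the enzymes, *Hk2*, *Gapdh*, *Eno1* and *Ldha*, were called lower in each of the comparisons of a germ cell group with stem cells given below. For that reason the 250 bases before a RefSeq start of each are shown here (GRCm38.p6, 5′ to 3′ on the strand of the gene). Capitals mark ACGTG, the core of the sites that hypoxia-inducible factors recognise, or CACGT, the same letters on the opposite strand. A run of CACGTG, the E-box letters known for MYC and for carbohydrate response factors, contains both and so counts once on each strand.
*Hk2*, chr6:82774455-82774704, minus strand: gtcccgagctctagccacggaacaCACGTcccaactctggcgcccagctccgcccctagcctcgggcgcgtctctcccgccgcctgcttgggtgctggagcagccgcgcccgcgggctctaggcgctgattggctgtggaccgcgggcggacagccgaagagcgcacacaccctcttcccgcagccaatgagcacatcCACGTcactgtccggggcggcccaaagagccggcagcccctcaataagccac
*Gapdh*, chr6:125165774-125166023, minus strand: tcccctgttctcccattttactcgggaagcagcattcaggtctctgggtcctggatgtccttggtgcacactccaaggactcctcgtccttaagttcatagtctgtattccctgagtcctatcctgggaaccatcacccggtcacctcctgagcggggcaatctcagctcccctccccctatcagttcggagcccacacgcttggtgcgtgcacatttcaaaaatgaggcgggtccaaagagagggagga
*Eno1*, chr4:150236947-150237196, plus strand: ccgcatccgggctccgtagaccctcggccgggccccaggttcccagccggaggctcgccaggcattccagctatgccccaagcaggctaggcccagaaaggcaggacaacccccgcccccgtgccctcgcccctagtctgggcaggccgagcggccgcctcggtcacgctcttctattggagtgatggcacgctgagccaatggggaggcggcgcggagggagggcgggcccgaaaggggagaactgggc
*Ldha*, upstream start, chr7:46845554-46845803, plus strand: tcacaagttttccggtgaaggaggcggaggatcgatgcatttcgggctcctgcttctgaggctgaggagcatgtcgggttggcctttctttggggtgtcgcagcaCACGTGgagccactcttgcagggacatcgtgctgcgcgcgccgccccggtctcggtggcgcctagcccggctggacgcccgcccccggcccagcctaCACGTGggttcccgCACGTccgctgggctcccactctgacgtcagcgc
*Ldha*, downstream start, chr7:46846832-46847081, plus strand: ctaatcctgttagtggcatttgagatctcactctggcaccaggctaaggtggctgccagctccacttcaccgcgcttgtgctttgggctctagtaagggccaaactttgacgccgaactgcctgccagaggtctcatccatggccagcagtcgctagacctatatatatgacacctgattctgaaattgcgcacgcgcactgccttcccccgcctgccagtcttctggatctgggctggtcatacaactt
The upstream *Ldha* window held 5 matches to ACGTG over both strands, 4 of them from 2 CACGTG runs, and the *Hk2* window held 2. No match lay in the *Gapdh*, *Eno1* or downstream *Ldha* windows, which says only that these letters are not in these bases. ACGTG occurred in 16.6% and CACGTG in 6.02% of all 32851 promoter windows of this length. The bases that follow the upstream *Ldha* start, which lies 4329 bases inside the GENCODE model of the gene, are in no annotated transcript of it, while those after the downstream start are. *Eno1* has other RefSeq windows, and none of them held ACGTG. Taking for each of the 10 enzymes the window nearest the 5′ end of its GENCODE model, 2 held ACGTG, 1 held CACGTG and 5 held GGGCGG, the GC box, which 32.7% of all windows hold. For *Ldha* that window is the upstream one. *Aldoa* and *Pkm* held ACGTG in other RefSeq windows, farther from that end.

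The first step of the pathway differed most simply between the groups. *Hk2* (chromosome 6, 82725025 to 82774454, GRCm38), the inducible hexokinase bound to mitochondria, was at 56.2 and 70.8 TPM in ESCs, 56.7 and 72.1 TPM in pESCs, 4.83 and 5.47 TPM in ESC-PGCLCs, 5.35 and 6.45 TPM in pESC-PGCLCs, and 7.22 and 8.55 TPM in PGCs. All stem cell libraries were thus above all germ cell libraries, with no overlap, and the libraries of ESCs and pESCs overlapped. *Hk2* fell in ESC-PGCLCs against ESCs, with a log2 change of TPM + 1 of -3.38 ± 0.19 (SE, adjusted p = 7.68e-06 in limma's test), and in pESC-PGCLCs against pESCs (-3.24 ± 0.19, adjusted p = 1.41e-05). Between pESC-PGCLCs and ESC-PGCLCs its log2 difference was 0.16 ± 0.19 (adjusted p = 0.604; 95% interval -0.28 to 0.60), and -0.49 after each library was centred within bins of GC content. *Hk1*, the hexokinase of most adult tissues, was between 0.165 and 0.772 TPM in all 10 libraries, from 7 to 51 reads each, and as deposited passed the test in no comparison; the sign of its small differences changed with the scaling. *Hk2* therefore made up 89.6% to 99.5% of the summed TPM of *Hk1* and *Hk2* in every library.

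*Gpi1* (chromosome 7, 34201330 to 34230336), which turns glucose phosphate into fructose phosphate, had its highest level in ESCs. It was at 41.0 and 34.5 TPM in ESCs, 20.2 and 20.3 TPM in pESCs, 4.95 and 6.36 TPM in ESC-PGCLCs, 12.8 and 13.3 TPM in pESC-PGCLCs, and 17.1 and 12.6 TPM in PGCs. Only PGCs and pESC-PGCLCs overlapped among neighbours in that order. *Gpi1* fell in ESC-PGCLCs against ESCs (log2 change -2.54 ± 0.19, adjusted p = 2.4e-05), while in pESC-PGCLCs against pESCs its log2 difference of -0.60 ± 0.19 (adjusted p = 0.0305) stayed under 2-fold.

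The phosphofructokinases did not share this pattern. *Pfkp*, the platelet type, was at 9.40 and 8.46 TPM in ESCs, 6.67 and 9.39 TPM in pESCs, 7.29 and 8.10 TPM in ESC-PGCLCs, 5.39 and 6.69 TPM in pESC-PGCLCs, and 12.7 TPM in PGC replicate 2, with a PGC mean of 11.4 ± 1.89 TPM (SD, n = 2). It was called in no comparison, and its difference closest to the fold threshold was that of PGCs from pESC-PGCLCs (log2 difference 0.81 ± 0.20, adjusted p = 0.0488). Of the 100-base stretches of its mRNAs, 14.2% also occur in a gene that overlaps it, *Pitrm1*, so its reads could be split. *Pfkl*, the liver type, was at 1.35 and 1.21 TPM in ESCs, 1.31 and 1.07 TPM in pESCs, 0.504 and 0.589 TPM in ESC-PGCLCs, 1.90 and 1.83 TPM in pESC-PGCLCs, and 2.18 and 1.86 TPM in PGCs. ESC-PGCLCs were lowest, with 16 reads in each library. Its log2 differences of 0.89 ± 0.16 between pESC-PGCLCs and ESC-PGCLCs (adjusted p = 0.00582) and -0.56 ± 0.16 between ESC-PGCLCs and ESCs (adjusted p = 0.0211) missed the fold threshold with a pseudocount of 1 TPM, and passed it at 1.61 and -1.10 with a pseudocount of 0.1 TPM. Both changed sign after centring within bins of GC content, to -0.08 and 0.17. *Pfkp* made up 41.5% and 42.6% of the summed TPM of the 3 phosphofructokinases in pESC-PGCLCs, and 47.0% to 73.4% in the other libraries.

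*Aldoa* (chromosome 7, 126795234 to 126800751), the aldolase that splits the sugar into trioses, was among the most abundant members. It was at 273 and 192 TPM in ESCs, 167 and 146 TPM in pESCs, 19.9 and 22.6 TPM in ESC-PGCLCs, 80.5 and 84.1 TPM in pESC-PGCLCs, and 154 and 69.6 TPM in PGCs. The PGC libraries lay far apart and overlapped both those of pESCs and those of pESC-PGCLCs. *Aldoa* fell in ESC-PGCLCs against ESCs (log2 change -3.37 ± 0.34, adjusted p = 0.000114). In pESC-PGCLCs against pESCs its log2 difference was -0.92 ± 0.34 (adjusted p = 0.0595).

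*Gapdh* (chromosome 6, 125161715 to 125166467), which oxidises glyceraldehyde phosphate and makes NADH, is often used as a reference gene, and its level was not steady here. It was at 50.4 and 44.9 TPM in ESCs, 21.9 and 24.4 TPM in pESCs, 2.49 and 2.85 TPM in ESC-PGCLCs, 4.26 and 5.01 TPM in pESC-PGCLCs, and 12.9 and 6.56 TPM in PGCs. No groups overlapped. *Gapdh* fell in ESC-PGCLCs against ESCs (log2 change -3.73 ± 0.27, adjusted p = 2.16e-05) and in pESC-PGCLCs against pESCs (-2.10 ± 0.27, adjusted p = 0.000444). These levels rest on few reads in ESC-PGCLCs, 49 and 48, and leave out most TPM of *Gapdh*-like sequence. Of the 100-base stretches of its mRNAs, 53.1% also occur in other genes, and the 81 annotated pseudogenes in the table that share such stretches summed to 560 and 504 TPM in ESCs, 319 and 272 TPM in pESCs, 45.8 and 40.5 TPM in ESC-PGCLCs, 151 and 148 TPM in pESC-PGCLCs, and 241 and 135 TPM in PGCs. The gene and its copies together thus had between 91.7% and 97.3% of their TPM on the copies. Summed with its copies, *Gapdh* was higher in pESC-PGCLCs than in ESC-PGCLCs (log2 change 1.73, adjusted p = 0.00213), whereas the gene alone was not called (0.62 ± 0.27, adjusted p = 0.14; -0.27 after centring within bins of GC content).

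**Figure D2:**
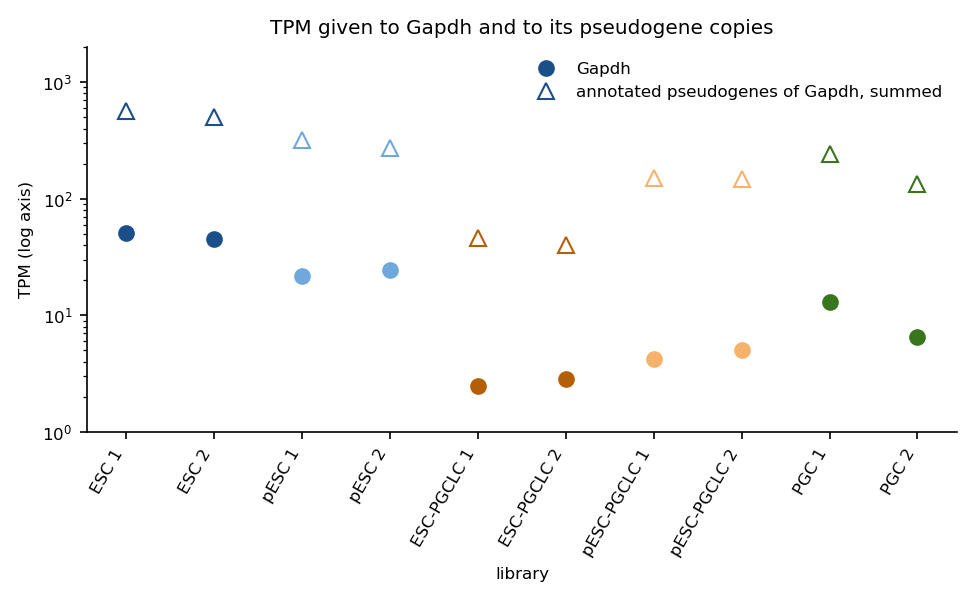
TPM (vertical axis, logarithmic) given to *Gapdh* (filled circles) and to its 81 annotated pseudogenes summed (open triangles) in each of the 10 libraries, coloured by group. The copies lie above the gene in every library, from 40.5 against 2.85 TPM in ESC-PGCLC replicate 2 to 560 against 50.4 TPM in ESC replicate 1.

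*Eno1* (chromosome 4, 150236721 to 150248879), the enolase that makes phosphoenolpyruvate, had the widest span of the 10. It was at 320 and 252 TPM in ESCs, 117 and 132 TPM in pESCs, 3.32 and 3.11 TPM in ESC-PGCLCs, 23.8 and 28.4 TPM in pESC-PGCLCs, and 21.9 and 14.7 TPM in PGCs. No groups overlapped, and the ESC-PGCLC libraries, with 85 and 68 reads, were below all others. *Eno1* was 89.0-fold lower in ESC-PGCLCs than in ESCs by mean TPM (log2 change -6.08 ± 0.21, adjusted p = 1.75e-06) and 4.76-fold lower in pESC-PGCLCs than in pESCs (-2.21 ± 0.21, adjusted p = 0.000117). Its mRNAs share 39.5% of their 100-base stretches with *Eno1b* and 3 pseudogenes, so part of its reads could be assigned elsewhere. For 2 of the pseudogenes values were given. Of their summed TPM with *Eno1*, they held 46.1% and 45.3% in pESC-PGCLCs and 19.5% and 32.2% in PGCs. They held 0% and 19.6% in ESC-PGCLCs and 5.05% to 9.41% in stem cells. With these pseudogenes summed in, *Eno1* kept its direction and calls. *Eno1b* itself was likewise highest in ESCs and lowest in ESC-PGCLCs, at 61.7 and 50.4 TPM in ESCs, 38.3 and 30.1 TPM in pESCs, 2.15 and 2.24 TPM in ESC-PGCLCs, 27.4 and 26.7 TPM in pESC-PGCLCs, and 16.8 and 15.8 TPM in PGCs. *Eno1* made up 74.5% to 83.2% of the summed TPM of *Eno1*, *Eno1b*, *Eno2* and *Eno3* in stem cells and 40.5% to 51.6% in germ cell groups.

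*Pkm* (chromosome 9, 59656368 to 59679375), the pyruvate kinase of most tissues other than liver, was the least changed of the later enzymes. It was at 125 and 109 TPM in ESCs, 58.5 and 70.2 TPM in pESCs, 28.9 and 30.3 TPM in ESC-PGCLCs, 64.5 and 70.2 TPM in pESC-PGCLCs, and 83.1 and 75.0 TPM in PGCs. ESCs were above and ESC-PGCLCs below every other library, and pESCs and pESC-PGCLCs overlapped. *Pkm* fell in ESC-PGCLCs against ESCs (log2 change -1.94 ± 0.15, adjusted p = 2.71e-05), and its log2 difference between pESC-PGCLCs and pESCs was 0.07 ± 0.15 (adjusted p = 0.739), with the opposite sign under each of the other scalings (-0.26 to -0.66).

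*Ldha* (chromosome 7, 46841475 to 46855627), the lactate dehydrogenase subunit of glycolytic tissues, was at 499 and 469 TPM in ESCs, 354 and 425 TPM in pESCs, 33.0 and 35.9 TPM in ESC-PGCLCs, 96.2 and 88.7 TPM in pESC-PGCLCs, and 115 and 113 TPM in PGCs. No groups overlapped. *Ldha* fell in ESC-PGCLCs against ESCs (log2 change -3.78 ± 0.14, adjusted p = 1.78e-06) and in pESC-PGCLCs against pESCs (-2.06 ± 0.14, adjusted p = 2.45e-05). *Ldhb*, the subunit of oxidative tissues, had more TPM than *Ldha* in every library. The exon lengths were 3310 nt for *Ldha* and 1570 nt for *Ldhb*, so the size of this excess and of the shares depends on them. *Ldha* made up 31.2% and 29.3% of their summed TPM in ESCs, 27.8% and 28.0% in pESCs and 26.1% and 21.9% in PGCs. It made up 16.4% and 18.6% in ESC-PGCLCs and 12.4% and 11.3% in pESC-PGCLCs. The lowest share was thus in pESC-PGCLCs and not in ESC-PGCLCs, where the level of *Ldha* was lowest.

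The next comparisons ask how the enzymes differed from stem cells to germ cells. Calls needed an adjusted p below 0.05 together with a 2-fold change or more in log2(TPM + 1). In ESC-PGCLCs against ESCs, 7 of the 10 enzymes fell (*Hk2*, *Gpi1*, *Aldoa*, *Gapdh*, *Eno1*, *Pkm* and *Ldha*) and none rose, where 15.3% of all genes tested were called higher and 14.5% lower. The median log2 change of the 10 was -2.96, against 0.05 over all genes tested and -0.01 over the 9024 genes at 1 TPM or more throughout. All 7 calls were kept with each of 3 other scalings of the libraries (quantile normalization, median centring, and centring within bins of GC content). *Hk1*, *Pfkl* and *Pfkp* were the members without a call.

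In pESC-PGCLCs against pESCs, 4 of the 10 enzymes fell, *Hk2* (log2 change -3.24), *Eno1* (-2.21), *Gapdh* (-2.10) and *Ldha* (-2.06), where 27.6% of all genes were called, 6.80% lower and 20.8% higher. None rose. The median log2 change of the 10 was -0.76, against 0.22 over all genes tested and 0.64 over the genes at 1 TPM or more throughout. The 4 calls were kept with each of the 3 other scalings, and median centring added *Gpi1* (log2 change -1.33), *Pfkp* (-1.08) and *Aldoa* (-1.65). Of all genes called, 75.4% were higher as deposited and 29.8% after centring within bins of GC content.

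In PGCs against the mean of ESCs and pESCs, the same 4 enzymes fell, *Eno1* (log2 change -3.31 ± 0.18), *Hk2* (-2.86 ± 0.16), *Ldha* (-1.92 ± 0.12) and *Gapdh* (-1.74 ± 0.23; adjusted p between 4.78e-06 and 0.00033), where 33.3% of all genes were called, 25.3% higher and 8.06% lower. All 4 calls were kept with each of the other scalings. *Gpi1* missed the fold threshold at -0.87 ± 0.16 (adjusted p = 0.00206), and reached a call at -1.07 without PGC replicate 1, as did *Aldoa* at -1.43. *Pkm* had a log2 difference of -0.13 ± 0.13 (adjusted p = 0.411). The median of the 10 was -0.87, against 0.28 over all genes tested and 0.62 over those at 1 TPM or more throughout, and 75.8% of all genes called were higher as deposited, against 34.8% after centring within bins of GC content. These 3 comparisons share stem cell libraries.

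**Figure D3:**
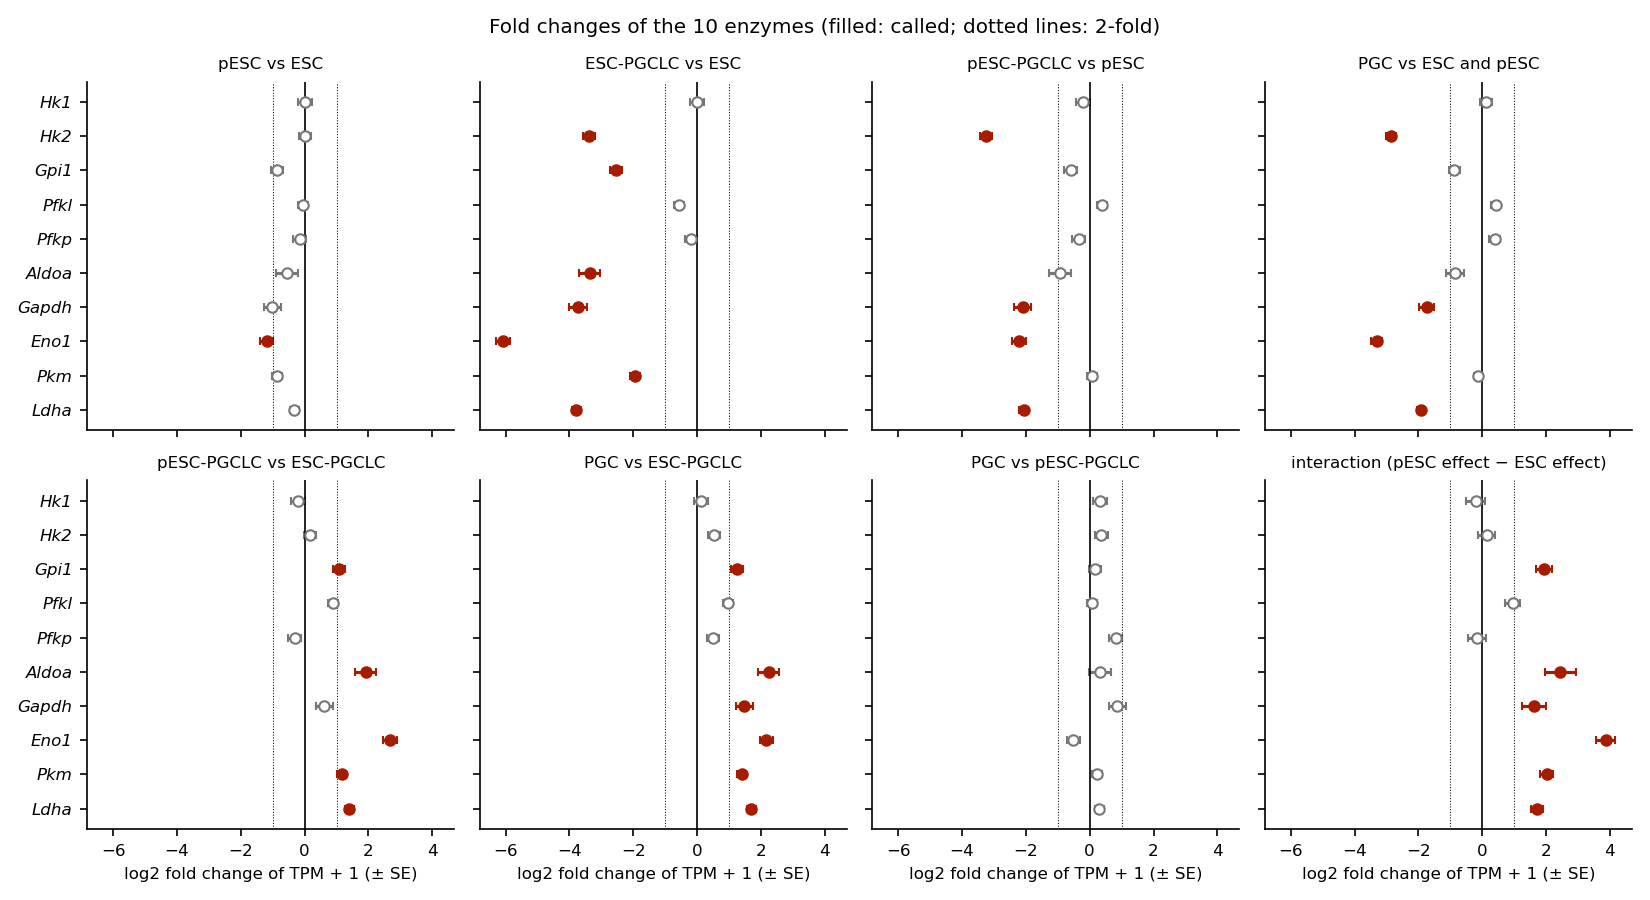
Log2 fold change of TPM + 1 (horizontal axis, bars are standard errors) of the 10 enzymes in each of 8 comparisons; filled points were called and dotted lines mark 2-fold. *Eno1* reaches -6.08 in ESC-PGCLCs against ESCs and 3.87 in the interaction, and no enzyme is called in PGCs against pESC-PGCLCs.

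Between the stem cell lines, 1 of the 10 enzymes was called. *Eno1* was the enzyme called in pESCs against ESCs (log2 change -1.19 ± 0.21, adjusted p = 0.0487), where 0.781% of all genes were called, 0.616% lower and 0.165% higher. The call was near the threshold, and was lost on leaving out ESC replicate 1 (-1.02, adjusted p = 0.331), ESC replicate 2 (-1.36, adjusted p = 0.131) or pESC replicate 1 (-1.10, adjusted p = 0.163), with each of the 3 other scalings (-0.72 to -1.03, adjusted p of 0.0701 to 0.0709), and under other settings. By mean TPM *Eno1* was 2.3-fold lower in pESCs. *Gapdh* (-1.01 ± 0.27, adjusted p = 0.0943), *Pkm* (-0.86 ± 0.15, adjusted p = 0.0443) and *Gpi1* (-0.86 ± 0.19, adjusted p = 0.0659) were not called. *Hk2* had a log2 difference of 0.02 ± 0.19. The median of the 10 was -0.43, against -0.28 over the genes at 1 TPM or more throughout, and 21.1% of all genes called were higher as deposited, against 83.8% after centring within bins of GC content.

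Among PGCLCs the levels of some enzymes were higher in the parthenogenetic group. In pESC-PGCLCs against ESC-PGCLCs, 5 of the 10 enzymes rose, *Eno1* (log2 change 2.68 ± 0.21, adjusted p = 0.000203), *Aldoa* (1.91 ± 0.34, adjusted p = 0.00567), *Ldha* (1.40 ± 0.14, adjusted p = 0.000435), *Pkm* (1.16 ± 0.15, adjusted p = 0.00123) and *Gpi1* (1.08 ± 0.19, adjusted p = 0.00472), where 13.4% of all genes were called, 10.3% higher and 3.08% lower. None fell. The median of the 10 was 0.99, against 0.34 over the genes at 1 TPM or more throughout. *Eno1* alone was called with each of the other scalings. After centring within bins of GC content the log2 differences were 0.94 for *Aldoa*, 0.74 for *Ldha*, 0.32 for *Pkm* and 0.24 for *Gpi1*, and the share of all genes called that were higher went from 77.0% to 31.1%. The call of *Gpi1* was also lost without ESC-PGCLC replicate 1 (0.93, adjusted p = 0.0337). Haemoglobin genes, at 2901 and 3437 TPM in pESC-PGCLCs against 492 and 562 TPM in ESC-PGCLCs, moved the same way.

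The interaction tests whether the change from stem cells to PGCLCs differed between the parthenogenetic and the fertilized line. It also equals the difference between the PGCLC groups minus that between the stem cell lines, so it is not separate from those comparisons. For *Gapdh* these were 0.62 and -1.01, neither of them called. The interaction was called for 6 of the 10 enzymes, all in the direction of a smaller fall, or none, in the parthenogenetic cells. Of all genes, 15.5% were called in that direction and 3.53% in the other. The median of the 10 was 1.67, against 0.21 over all genes tested and 0.63 over those at 1 TPM or more throughout. The difference of the log2 changes was 3.87 ± 0.30 for *Eno1* (adjusted p = 0.000378), 2.45 ± 0.48 for *Aldoa* (adjusted p = 0.00902), 2.02 ± 0.21 for *Pkm* (adjusted p = 0.000682), 1.94 ± 0.26 for *Gpi1* (adjusted p = 0.00183), 1.72 ± 0.19 for *Ldha* (adjusted p = 0.000952) and 1.63 ± 0.38 for *Gapdh* (adjusted p = 0.018). For *Hk2* it was 0.14 ± 0.27 (adjusted p = 0.757; 95% interval -0.48 to 0.76), and -0.91 after centring within bins of GC content. None of the 6 called enzymes changed sign under the other scalings, but centring within bins of GC content left 2 of them called and called *Hk1* in the opposite direction (-1.27, adjusted p = 0.0195). *Aldoa* and *Eno1* were called with each of the other scalings, and *Aldoa* was lost without ESC replicate 1 (2.20, adjusted p = 0.0508). *Gapdh* was lost on leaving out any of 6 libraries, with adjusted p between 0.0501 and 0.08. Of all genes called, 81.5% were higher as deposited and 18.6% after centring within bins of GC content.

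Set against PGCs, ESC-PGCLCs had the lower levels. *Aldoa* (log2 change 2.24 ± 0.34, adjusted p = 0.00351), *Eno1* (2.17 ± 0.21, adjusted p = 0.00114), *Ldha* (1.70 ± 0.14, adjusted p = 0.000689), *Gapdh* (1.48 ± 0.27, adjusted p = 0.00604), *Pkm* (1.39 ± 0.15, adjusted p = 0.00137) and *Gpi1* (1.24 ± 0.19, adjusted p = 0.00331) were higher in PGCs, 6 of the 10, where 12.0% of all genes were called higher and 1.88% lower. *Aldoa* and *Eno1* were called with each of the other scalings, and of all genes called 86.4% were higher as deposited and 12.7% after centring within bins of GC content. A fit of these 4 libraries alone called 0 of 27259 genes, the enzymes included (adjusted p of 0.0595 to 0.111 for the 6). In PGCs against pESC-PGCLCs, limma called 0 of the 10 enzymes, where 3.67% of all genes were called (2.07% higher and 1.60% lower), 3 had an unadjusted p under 0.05, and voom on the recovered reads also called 0. The log2 differences there ran from -0.51 ± 0.21 for *Eno1* to 0.86 ± 0.27 for *Gapdh*, which was called without PGC replicate 2 (1.30, adjusted p = 0.0132).

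**Figure D4:**
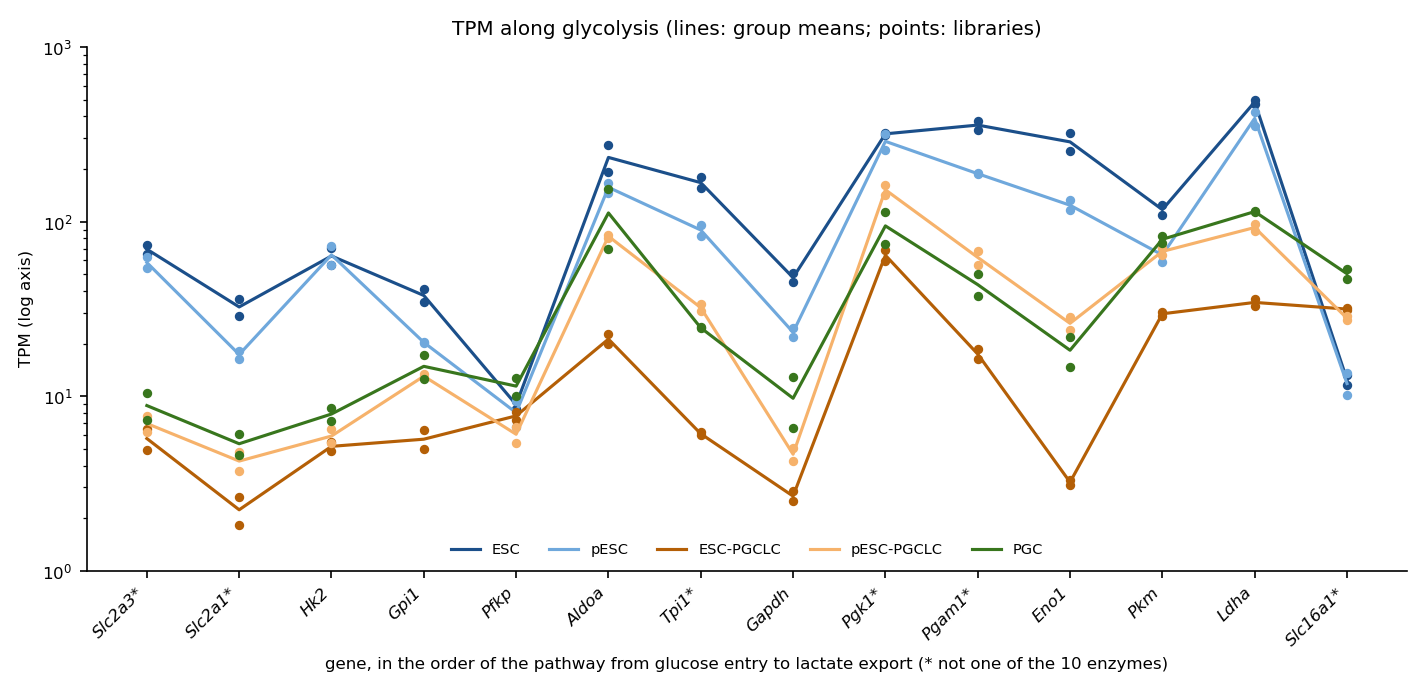
TPM (vertical axis, logarithmic) of 14 genes in the order of the pathway, from glucose transporters through the enzymes to the lactate transporter *Slc16a1*, by group (lines are means, points are libraries; an asterisk marks genes outside the 10 enzymes). ESC-PGCLCs are at 3.32 and 3.11 TPM at *Eno1*, where ESCs are at 320 and 252 TPM, and *Slc16a1* runs the other way, from 10.1 to 13.5 TPM in stem cells to 27.1 to 53.3 TPM in germ cell groups.

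Other genes of the pathway were taken from lists and are given by their counts, which are to be read against the share of all genes called. That share was 15.3% higher and 14.5% lower in ESC-PGCLCs against ESCs, 20.8% and 6.80% in pESC-PGCLCs against pESCs, and 25.3% and 8.06% in PGCs against stem cells. Whether a list differed from other genes was not tested. Of 23 further glycolytic isozymes and steps, 19 were tested, and 7 fell and 1 rose in ESC-PGCLCs against ESCs, with the same counts in each direction under the other scalings. *Tpi1*, triose phosphate isomerase (log2 change -4.57, adjusted p = 1.23e-06), and *Pgam1*, phosphoglycerate mutase (-4.28, adjusted p = 2.75e-06), had the greatest changes. *Tpi1* was at 180 and 155 TPM in ESCs, 82.8 and 95.9 TPM in pESCs, 6.19 and 5.98 TPM in ESC-PGCLCs, 30.7 and 33.5 TPM in pESC-PGCLCs, and 24.4 and 24.8 TPM in PGCs. In pESC-PGCLCs against pESCs 3 rose and 2 fell as deposited, against 1 or 2 and 5 to 7 under the other scalings, and *Ldhc*, a lactate dehydrogenase of testis, was among those that rose (log2 change 1.63, adjusted p = 0.00185). The interaction was called for 14 of the 19, all above 0 as deposited, where 15.5% of all genes were called above 0 and 3.53% below. After centring within bins of GC content it was called for 5 above and 3 below 0. In PGCs against pESC-PGCLCs *Gapdhs* alone was called, the sperm form of *Gapdh* (-1.05, adjusted p = 0.0368), where 3.67% of all genes were called.

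Glucose and lactate carriers were called in both directions. Of 11 transporter genes, 3 fell and 2 rose in ESC-PGCLCs against ESCs, where 29.8% of all genes were called. In pESC-PGCLCs against pESCs 2 fell and 2 rose, a share near the 27.6% of all genes, and 2 fell and 1 rose under each of the other scalings. *Slc2a3*, the high-affinity glucose transporter, was at 73.4 and 65.4 TPM in ESCs, 54.0 and 62.4 TPM in pESCs, 4.90 and 6.51 TPM in ESC-PGCLCs, 6.21 and 7.72 TPM in pESC-PGCLCs, and 10.4 and 7.26 TPM in PGCs, an order like that of *Hk2*. It fell in ESC-PGCLCs (log2 change -3.40), in pESC-PGCLCs (-2.90) and in PGCs (-2.73) against stem cells. *Slc16a1*, a lactate carrier, rose in PGCs against stem cells (1.97, adjusted p = 1.47e-05). *Bsg*, the chaperone of lactate carriers, fell in ESC-PGCLCs against ESCs (-3.77) and was called in the interaction (4.32, adjusted p = 0.000323).

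Side branches showed mixed counts. Of 9 tested genes of the pentose phosphate pathway, 5 fell and 3 rose in ESC-PGCLCs against ESCs (3 and 2 after centring within bins of GC content), where 29.8% of all genes were called, with *G6pdx*, its entry enzyme, at -3.48 and *Tktl1*, a transketolase-like gene, at 3.10. *G6pdx* was the called gene of that list in pESCs against ESCs (-1.09, adjusted p = 0.0488). Of 6 genes for the control of fructose bisphosphate and the use of fructose, 2 fell and 1 rose in ESC-PGCLCs against ESCs (1 and 1 after centring within bins of GC content). *Tigar*, a phosphatase that lowers glycolysis, was at -1.74, *Khk*, the kinase that starts the use of fructose, at -1.72 and *Pfkfb3*, a kinase that raises glycolysis, at 1.73. Of 14 genes for pyruvate entry into mitochondria, 4 rose and 2 fell in ESC-PGCLCs, 8 rose and 1 fell in pESC-PGCLCs, and 9 rose and 1 fell in PGCs against stem cells, where 15.3%, 20.8% and 25.3% of all genes were called higher. The other scalings gave 3 or 4 that rose in pESC-PGCLCs and 3 to 6 in PGCs, with 1 or 2 that fell. *Pdp1*, the phosphatase that activates pyruvate dehydrogenase, was at 1.64 and 1.62 TPM in ESCs, 1.26 and 1.43 TPM in pESCs, 38.4 and 37.8 TPM in ESC-PGCLCs, 32.8 and 34.2 TPM in pESC-PGCLCs, and 43.1 and 55.0 TPM in PGCs, and rose in all 3 comparisons with stem cells (3.89, 3.88 and 4.32).

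Known regulators of glycolytic genes were called in both directions. Of 17 tested, 4 rose and 3 fell in ESC-PGCLCs against ESCs, 8 rose and 2 fell in pESC-PGCLCs against pESCs, and 10 rose and 2 fell in PGCs against stem cells, where 15.3%, 20.8% and 25.3% of all genes were called higher and 14.5%, 6.80% and 8.06% lower. Under the other scalings 4 to 6 rose in pESC-PGCLCs and 6 or 7 in PGCs. *Hif1a*, the hypoxia-inducible factor that activates glycolytic genes, was at 12.1 and 13.8 TPM in ESCs, 7.49 and 12.1 TPM in pESCs, 78.7 and 82.1 TPM in ESC-PGCLCs, 52.5 and 56.7 TPM in pESC-PGCLCs, and 71.7 and 97.5 TPM in PGCs. It was higher in every germ cell library, while *Hk2*, *Gapdh*, *Eno1* and *Ldha* were lower in each of them, and it rose in ESC-PGCLCs (log2 change 2.55, adjusted p = 6.36e-05), in pESC-PGCLCs (2.40, adjusted p = 0.000112) and in PGCs (2.81, adjusted p = 1.34e-05). RNA level says nothing of the protein, which oxygen controls.

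The genes whose pattern over the 10 libraries was most like each enzyme were sought among the 8534 genes whose mean was 5 TPM or more, by Pearson r of log2(TPM + 1). The libraries fall into stem cell and germ cell libraries, so high values are common and are given as a description. For *Eno1* they were *Bud23* (0.997), *Pgam1* (0.997) and *Tpi1* (0.996), the last pair being other enzymes of the pathway. For *Ldha* they were *Smpdl3b* (0.997), *Ndufaf3* (0.995) and *Mpi* (0.995), and for *Hk2* they were *Gm12925* (0.996), *1110038B12Rik* (0.994) and *Wfdc2* (0.993). *Gapdh* was most like *D230025D16Rik* (0.996), *Pltp* (0.995) and *Tmem39a* (0.994), *Aldoa* most like *Dcps* (0.990), *Gm26938* (0.989) and *Rnf5* (0.989), *Gpi1* most like *Tmem120a* (0.990), *Shmt2* (0.989) and *Enoph1* (0.987), and *Pkm* most like *Ppp2r1a* (0.989), *Acot7* (0.984) and *Ttc4* (0.984). *Pfkl* was most like *Pfdn6* (0.997), *Rhoc* (0.984) and *Bmyc* (0.972). Values were lower for *Pfkp*, with *Gm11478* at 0.901, *Dcp2* at 0.894 and *Gm27747* at 0.890, and for *Hk1*, with *Gm45120* at 0.882, *Gm6807* at 0.840 and *Wdr89* at 0.822.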

How the data were processed

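RNA-seq libraries of 10 mouse samples were read from 1 table of TPM per gene, which the authors deposited; the labels name mm10, HISAT2, Bowtie2, RSEM and R 3.4.2, and the methods HISAT2 and featureCounts. Other versions and the annotation are not given in the sources used here. The labels name a NEBNext kit and the methods Smart-seq2. TPM multiplied by GENCODE M21 exon length gave whole reads (within 0.02, for values up to 50 reads) for 96.1% to 96.8% of values, and depth was taken from these. At the median exon length of 2183 nt, 3 reads were worth 0.116 to 0.338 TPM.

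The 27259 genes with at least 0.1 TPM in 2 libraries were fitted in limma 3.58.1 (R 4.3.3) on log2(TPM + 1) with a mean for each of the 5 groups and an intensity trend, so that fold changes of low genes are understated. Tests were two-sided, p-values were adjusted by Benjamini-Hochberg over all genes, and calls needed an adjusted p under 0.05 and 2-fold. The test had 7.81 degrees of freedom. An exact permutation test of 2 against 2 libraries cannot go below p = 0.333 and was not used. The script was tested on simulated data. Tables and figures used pandas 2.3.3 and numpy 2.4.6 under Python 3.11.15, with matplotlib 3.10.9 for plots.

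Alternatives were another pseudocount and filter, the compared groups alone, quantile normalization, median centring, a replicate block, no fold minimum, voom on recovered reads and leaving out each library. Centring within 20 bins of GC content and summing with pseudogene copies were chosen after seeing the data. Named genes were the 10 enzymes, up to 2 called genes of each list and comparison with the greatest change, and the 3 genes most like each enzyme; other list genes, such as *Ldhb*, *Eno1b*, *Khk*, *Col3a1* and *Pou5f1*, were named after their values were seen. 1 gene that this rule names is not reported here. The enzymes and lists were chosen with earlier results of these data known. Promoter sequences are from RefSeq, and all 10 enzymes matched by symbol.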

Additional observations from a re-analysis of the deposited data

Results flagged for a closer look

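For 6 of the 10 enzymes the change from stem cells to PGCLCs differed between the parthenogenetic and the fertilized line by a test of that difference (the interaction term of the limma fit). Of all genes, 15.5% were called in the same direction and 3.53% in the other. *Aldoa* and *Eno1* alone kept the call with each of the other scalings. The change in parthenogenetic cells minus that in cells of fertilized origin, in log2(TPM + 1), was 3.87 for *Eno1*, 2.45 for *Aldoa*, 2.02 for *Pkm*, 1.94 for *Gpi1*, 1.72 for *Ldha* and 1.63 for *Gapdh*. The differences between pESCs and ESCs enter these values. *Eno1* fell by 6.08 in ESC-PGCLCs and by 2.21 in pESC-PGCLCs against their own stem cells. With 2 libraries a group, no group was large enough to test a single library as an outlier.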

How the results depend on the processing

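The number of enzymes called depended on the processing as follows. In pESCs against ESCs it was 1, and 0 with a pseudocount of 0.1 TPM, with no filter, with the compared groups alone, with quantile normalization, median centring or centring within bins of GC content, and with the replicate block, and 2 with no fold minimum. In pESC-PGCLCs against ESC-PGCLCs it went from 5 to 3 with quantile normalization, 2 with median centring and 1 with centring within bins of GC content. In pESC-PGCLCs against pESCs median centring raised it from 4 to 7. The interaction went from 6, all above 0, to 3 with centring within bins of GC content, 2 above 0 (*Aldoa* and *Eno1*) and 1 below (*Hk1*). In PGCs against ESC-PGCLCs it went from 6 to 0 with the compared groups alone, 3 with median centring and 2 with centring within bins of GC content. In PGCs against pESC-PGCLCs it went from 0 to 1 with no fold minimum, and in PGCs against stem cells from 4 to 7. Leaving out single libraries gave 0 to 1 enzymes in pESCs against ESCs and 0 to 1 in PGCs against pESC-PGCLCs. The cause of these changes was not tested. Libraries were not paired by replicate number in the main fit. Deviations of same-numbered libraries correlated in 3 of 10 pairs of groups above 0.1 (mean r 0.0617, highest 0.347), which does not settle whether some were paired. The replicate block changed the call of no enzyme other than *Eno1* in pESCs against ESCs (limma, adjusted p = 0.0708), while all genes called there went from 213 to 78.

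Of 1172 values of single enzymes under alternatives, 1023 kept direction and call, 49 lost the call, 31 gained it and 69 changed sign, all 69 for differences that had not been called. Quantile normalization gave log2 differences of the opposite sign in pESCs against ESCs for *Pfkl* (0.07) and *Pfkp* (0.12), in pESC-PGCLCs against ESC-PGCLCs for *Hk2* (-0.17), in pESC-PGCLCs against pESCs for *Pfkl* (-0.10) and *Pkm* (-0.26), in the interaction for *Hk2* (-0.41), in PGCs against ESC-PGCLCs for *Hk1* (-0.11), *Hk2* (-0.09) and *Pfkp* (-0.11), in PGCs against pESC-PGCLCs for *Gpi1* (-0.08) and *Pfkl* (-0.14) and in PGCs against stem cells for *Hk1* (-0.25), *Pfkl* (-0.21) and *Pfkp* (-0.41). Median centring did so in pESCs against ESCs for *Pfkl* (0.28), *Pfkp* (0.18) and *Ldha* (0.02), in pESC-PGCLCs against ESC-PGCLCs for *Hk2* (-0.25), in pESC-PGCLCs against pESCs for *Pfkl* (-0.34) and *Pkm* (-0.66), in the interaction for *Hk2* (-0.60), in PGCs against ESC-PGCLCs for *Hk1* (-0.49), *Hk2* (-0.08) and *Pfkp* (-0.10), in PGCs against pESC-PGCLCs for *Gpi1* (-0.04) and *Pfkl* (-0.12) and in PGCs against stem cells for *Hk1* (-0.64), *Pfkl* (-0.33) and *Pfkp* (-0.37). Centring within bins of GC content did so in pESCs against ESCs for *Pfkl* (0.33), *Pfkp* (0.18) and *Ldha* (0.08), in pESC-PGCLCs against ESC-PGCLCs for *Hk2* (-0.49), *Pfkl* (-0.08) and *Gapdh* (-0.27), in ESC-PGCLCs against ESCs for *Pfkl* (0.17), in pESC-PGCLCs against pESCs for *Pfkl* (-0.24) and *Pkm* (-0.62), in the interaction for *Hk2* (-0.91) and *Pfkl* (-0.41), in PGCs against ESC-PGCLCs for *Hk1* (-0.63), *Hk2* (-0.21), *Pfkl* (-0.19) and *Pfkp* (-0.12), in PGCs against pESC-PGCLCs for *Pfkl* (-0.11) and in PGCs against stem cells for *Hk1* (-0.40), *Pfkl* (-0.19) and *Pfkp* (-0.28). With voom on the recovered reads the sign changed in pESCs against ESCs for *Pfkl* (0.02), in pESC-PGCLCs against pESCs for *Pkm* (-0.22), in the interaction for *Hk2* (-0.04) and in PGCs against stem cells for *Hk1* (-0.08). Leaving out single libraries gave ranges that crossed 0 in pESCs against ESCs for *Hk1* (-0.11 to 0.13, on leaving out ESC replicate 1 or pESC replicate 1), *Hk2* (-0.15 to 0.19, on leaving out ESC replicate 1 or pESC replicate 2), *Pfkl* (-0.14 to 0.02, on leaving out pESC replicate 2) and *Pfkp* (-0.37 to 0.07, on leaving out pESC replicate 1), in pESC-PGCLCs against ESC-PGCLCs for *Hk1* (-0.44 to 0.03, on leaving out ESC-PGCLC replicate 2) and in pESC-PGCLCs against pESCs for *Pkm* (-0.06 to 0.20, on leaving out pESC replicate 1). Ranges also crossed 0 in the interaction for *Hk1* (-0.45 to 0.03, on leaving out ESC-PGCLC replicate 2), *Hk2* (-0.03 to 0.32, on leaving out ESC replicate 2 or pESC replicate 1) and *Pfkp* (-0.38 to 0.06, on leaving out pESC replicate 2), in PGCs against ESC-PGCLCs for *Hk1* (-0.12 to 0.36, on leaving out ESC-PGCLC replicate 1 or PGC replicate 1), in PGCs against pESC-PGCLCs for *Gpi1* (-0.04 to 0.36, on leaving out PGC replicate 1) and *Aldoa* (-0.24 to 0.90, on leaving out PGC replicate 1) and in PGCs against stem cells for *Hk1* (-0.12 to 0.36, on leaving out PGC replicate 1).

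Depth limits *Hk1* (7 to 51 reads), *Pfkl* (16 reads in each ESC-PGCLC library) and *Gapdh* and *Eno1* in ESC-PGCLCs (48 to 85 reads).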

Other observations

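Serine and hexosamine genes branch off glycolysis. Of 16 tested genes of the glycogen, hexosamine and serine branches, 7 fell and 4 rose in ESC-PGCLCs against ESCs, where 14.5% of all genes were called lower and 15.3% higher, and 6 to 8 fell and 2 to 4 rose under the other scalings. *Phgdh*, the entry enzyme of serine synthesis, was at 36.1 and 31.0 TPM in ESCs, 20.4 and 24.8 TPM in pESCs, 0.761 and 0.296 TPM in ESC-PGCLCs, 6.85 and 8.29 TPM in pESC-PGCLCs, and 5.61 and 3.87 TPM in PGCs. It fell in ESC-PGCLCs against ESCs (limma, log2 change -4.51, adjusted p = 5.1e-06), and was lowest there, as were *Eno1* and *Ldha*.

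Targets of hypoxia-inducible factors outside glycolysis were called in both directions in ESC-PGCLCs against ESCs. Of 18 tested, 3 rose and 1 fell, where 15.3% of all genes were called higher and 14.5% lower, and *Vegfa*, a growth factor for vessels, had a log2 change of 1.77 and *Ak4*, a mitochondrial adenylate kinase, of -2.11. In PGCs against stem cells 9 rose and 1 fell, where 25.3% of all genes were called higher and 8.06% lower, and 3 to 5 rose and 1 or 2 fell under the other scalings. Of 6 tested gluconeogenesis genes, 1 fell in ESC-PGCLCs against ESCs, *G6pc3*, a glucose phosphatase (-1.71), where 14.5% of all genes were called lower. None was called after centring within bins of GC content.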
